A study of Homo sapiens with 12 samples.

Results

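The ATP-binding cassette (ABC) transporter genes were read across 12 RNA-seq libraries of MCF10-A, a human breast epithelial cell line that is not tumour-derived. Members were chosen by name alone, as every gene name made of ABC, a subfamily letter from A to G and a number, and this gave 46 members among 57133 gene names, in subfamilies ABCA (12), ABCB (9), ABCC (12), ABCD (4), ABCE (1), ABCF (3) and ABCG (5). No measured value was used to select a member, although the family was picked for study with earlier results of these data known. All 4 groups of 3 libraries carried a doxycycline-inducible transgene and received doxycycline at 50 ng/ml, and poly(A) RNA was taken after 5 days. The growth factor EGF and insulin were in the medium of all groups. The mVenus group expressed the fluorescent protein mVenus alone, the p16 group mVenus fused to p16, and the p21 group mVenus fused to p21. p16 and p21 are cyclin-dependent kinase inhibitors that hold cells out of division. The p16_Torin2 group was the p16 line given Torin2, an inhibitor of the kinase mTOR, at 100 nM from the day after induction, where the other groups had its solvent DMSO. p21 cells were not given Torin2, so nothing here bears on Torin2 without p16.

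ABC proteins are built on a nucleotide-binding domain that hydrolyses ATP, and most pair it with membrane-spanning domains that move lipids, peptides, metal cofactors or drugs across a membrane. The ABCA and ABCG families move mainly sterols and phospholipids, ABCB and ABCC hold the mitochondrial transporters and the exporters of drugs and conjugates, and ABCD proteins feed very long chain fatty acids to the peroxisome or carry cobalamin. ABCE1 and the ABCF proteins lack membrane-spanning domains and act on ribosomes.

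Library totals ran from 13168749 to 18321114 counts, and the ABC members together took 0.134% to 0.153% of them. Of the 46 members, 32 passed the filter on low counts, among 14504 genes tested, and the other 14 were too low to test. All 8 breast epithelial markers examined had counts in each group, with a summed level of 5750 to 6019 counts per 1000000 counts (CPM) over the mVenus libraries, 14698 to 15454 in p16, 5912 to 6247 with Torin2 and 7615 to 7850 in p21. That sum was highest in p16, as were ABCA12, ABCC2 and ABCB5, and its part in their values was not tested. The largest parts of the p16 sum were KRT17 at 5295 to 5621 CPM and KRT5 at 4266 to 4559. TP63, unlike the rest of the list, was highest with Torin2, at 70.8 to 83.1 CPM against 35.0 to 39.3 in p16. MKI67, a proliferation gene, was lower in p16 (log2 fold change -5.03) and in p21 (-6.62) than in mVenus. With Torin2 it stood at 50.9 to 52.2 CPM, against 9.69 to 10.5 in p16 alone and 314 to 345 in mVenus. CDKN2A, which encodes p16, had 0 counts in every library, and so its row does not check the p16 label. The study's design text gives 3 biological replicates per condition, though nothing in the labels ties libraries to separate cultures. The p-values therefore measure the spread between these libraries, which may be technical. In these bulk samples, fewer cells of a type and less RNA per cell cannot be told apart.

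Promoter windows were available from RefSeq for 35 of the 46 members, of which 25 were tested. Each window is the 250 bases before a RefSeq start of the gene in GRCh38.p14. For 23 of the 35, the first transcribed bases after the window were in a GENCODE transcript of that gene. For the rest they were not, so a window need not lie before the start used in these cells. Those of 5 members with a called change of at least 2-fold are printed with that of ABCB10, which was called in 3 comparisons but at under 2-fold. They were picked after the values had been seen. The window of ABCA7, which fell 7.28-fold with Torin2, holds 25 CpGs and is not printed because 6 of its bases lie in an exon. Capitals mark CpG dinucleotides, and each line runs 5′ to 3′ on the gene's strand. They lie at chr2:215138627-215138876 (minus strand, ABCA12), chr10:99782390-99782639 (plus strand, ABCC2), chr4:88231627-88231876 (minus strand, ABCG2), chr17:69141896-69142145 (minus strand, ABCA6), chr12:39619804-39620053 (minus strand, ABCD2) and chr1:229558708-229558957 (minus strand, ABCB10), and none overlaps an exon of the annotation the counts were made with.
ABCA12: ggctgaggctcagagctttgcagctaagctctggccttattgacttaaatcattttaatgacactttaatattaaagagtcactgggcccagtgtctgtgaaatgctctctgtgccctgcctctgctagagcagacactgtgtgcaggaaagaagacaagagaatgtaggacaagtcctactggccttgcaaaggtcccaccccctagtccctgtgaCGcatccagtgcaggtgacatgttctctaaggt
ABCC2: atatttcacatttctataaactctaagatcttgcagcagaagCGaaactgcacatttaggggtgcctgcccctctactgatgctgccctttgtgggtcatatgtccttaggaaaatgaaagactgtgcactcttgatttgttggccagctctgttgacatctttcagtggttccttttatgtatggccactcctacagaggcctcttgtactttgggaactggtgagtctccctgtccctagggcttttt
ABCG2: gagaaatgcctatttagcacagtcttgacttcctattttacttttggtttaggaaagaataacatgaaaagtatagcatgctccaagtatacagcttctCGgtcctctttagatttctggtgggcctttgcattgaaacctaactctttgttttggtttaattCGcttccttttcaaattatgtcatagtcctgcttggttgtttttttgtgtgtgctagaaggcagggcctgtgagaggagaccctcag
ABCA6: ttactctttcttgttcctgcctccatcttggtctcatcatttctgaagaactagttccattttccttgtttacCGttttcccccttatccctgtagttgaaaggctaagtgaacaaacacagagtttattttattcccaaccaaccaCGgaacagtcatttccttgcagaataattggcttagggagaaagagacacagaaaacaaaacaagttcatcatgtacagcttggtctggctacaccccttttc
ABCD2: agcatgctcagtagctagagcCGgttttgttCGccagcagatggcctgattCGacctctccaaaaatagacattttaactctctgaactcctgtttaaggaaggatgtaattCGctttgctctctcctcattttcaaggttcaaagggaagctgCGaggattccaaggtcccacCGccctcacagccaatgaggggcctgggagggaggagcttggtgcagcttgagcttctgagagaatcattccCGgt
ABCB10: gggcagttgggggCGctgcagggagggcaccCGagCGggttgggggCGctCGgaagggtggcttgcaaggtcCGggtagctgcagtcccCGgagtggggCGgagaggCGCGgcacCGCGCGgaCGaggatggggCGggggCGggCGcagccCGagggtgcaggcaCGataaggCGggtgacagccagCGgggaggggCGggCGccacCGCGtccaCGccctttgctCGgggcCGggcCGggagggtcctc
The first 5 windows hold 1, 1, 2, 2 and 7 CpGs and that of ABCB10 holds 29. In the GENCODE annotation ABCG2 starts at 88231322 and ABCA12 at 215138428, both on the minus strand. Their windows, which begin at 88231627 and 215138627, lie further upstream and not directly before those starts. Their low CpG counts therefore need not be those of the promoters used in these cells. Among the 10 members that changed at least 2-fold in some comparison and have a window, the median was 2 CpGs (0 to 38). Of these 10, 7 had under 10 CpGs, while ABCA3 had 38, ABCA7 25 and ABCA1 16, so the printed windows do not show the whole range. Among the 15 other tested members with one it was 21 (2 to 42), and over all 27305 promoters it was 11. This CpG pattern was noticed after the values had been seen and carries no test.

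Each window was searched on both strands for 5 short motifs. The interferon element, GAAA then any 2 bases then GAAA, lies 140 to 131 bases before the start of ABCC2 and 172 to 163 before that of ABCA9. These were 2 of 35 member windows, against 3.07% of all promoters. The antioxidant element TGACNNNGC was in 6 member windows (ABCA2, ABCA3, ABCB6, ABCC4, ABCD4 and ABCF1) against 11.03% of all promoters, and in ABCB6 it overlaps an E-box. The E-box CACGTG was in 4 (ABCA1, ABCA9, ABCB6 and ABCF1), against 6.49%. A sterol element, TCACNCCAC, and a nuclear receptor repeat, AGGTCA with a second AGGTCA after any 4 bases, were in 0 member windows and in 0.875% and 0.0146% of all promoters. A match describes letters and not a bound site, and a missing match says only that these letters are not in that window.

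Levels of different members were compared as CPM per kilobase of exon. In mVenus cells ABCC3, an exporter of conjugated organic anions, was the most abundant at 35.9 ± 0.912 CPM per kb (SD, n = 3), followed by ABCE1 at 19.2 ± 1.25. ABCD3 at 15.8 ± 0.849 and ABCB10 at 15.8 ± 0.883 came next, and their libraries overlapped. In p16 cells the first place was taken by ABCA12 at 26.4 ± 1.63 CPM per kb, whose libraries did not overlap those of ABCC3 at 23.3 ± 1.47. ABCC3 was again first with Torin2, at 31.6 ± 1.09, and in p21, at 24.5 ± 0.659 CPM per kb.

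**Figure D1:**
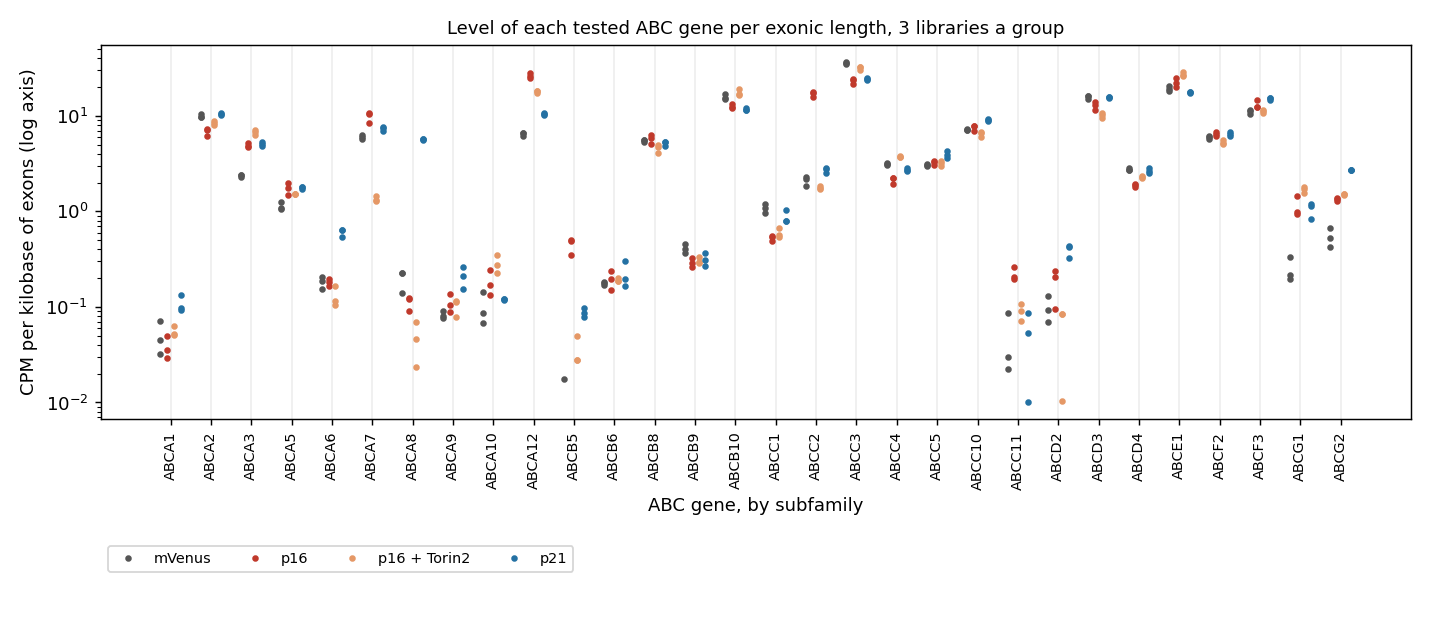
Level of 30 tested ABC genes in CPM per kilobase of exon (log axis), 1 point per library and 3 libraries a group, in order of subfamily. ABCC3 is highest in 3 groups and ABCA12 in p16, and groups lie far apart for ABCA8, ABCB5, ABCC2 and ABCA7 among others; 2 mVenus libraries with 0 ABCB5 counts are not drawn.

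Summed over the 46 members, the level was 173 ± 3.08 CPM per kb for mVenus, 207 ± 3.75 for p16, 185 ± 2.05 for p21 and 182 ± 1.66 for p16 given Torin2 (SD, n = 3 each). The ABCA sum was 26.4 ± 0.307 for mVenus, 50.5 ± 2.50 for p16, 41.9 ± 0.816 for p21 and 36.5 ± 1.28 for p16 given Torin2, with no overlap between any of the 4 groups. ABCA12 alone made up most of the rise of both sums from mVenus to p16, going from 6.41 ± 0.262 to 26.4 ± 1.63 CPM per kb. The members' median log2 fold change in p16 was 0.14. ABCG members were scarce, at 0.807 ± 0.0616 CPM per kb in mVenus against 2.46 ± 0.220 in p16, 3.22 ± 0.0978 with Torin2 and 3.79 ± 0.209 in p21. The ABCD sum was lowest with Torin2, at 20.7 ± 0.217, against 28.1 to 32.5 in the other groups. ABCC3 alone made up 20.7% of the family's sum in mVenus and 11.2% in p16.

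The 4 comparisons share libraries: p16 and p21 are set against the same mVenus libraries, and p16_Torin2 and p21 against the same p16 libraries. Each comparison's values are therefore given side by side, and the direct comparison of p21 with p16 stands as the test of their difference. Calls use an adjusted p under 0.05 from edgeR over all 14504 genes. Fold changes are log2 values ± their standard error, levels are means ± SD, and gene positions are those of GRCh38.

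In p16 cells against mVenus, 13 of the 32 tested members rose and 9 fell, 68.8% in all, where 63.7% of all genes tested were called, 30.9% higher and 32.8% lower. At least 2-fold changes were called for 7 higher and 1 lower, where 16.5% of all genes passed that rule, 7.11% higher and 9.35% lower. The members' median log2 fold change was 0.14 and that of all genes -0.00. In p21 cells 17 rose and 6 fell, or 71.9% against 56.4% of all genes, of which 28.2% were higher and 28.3% lower. At least 2-fold, 9 members were higher and 0 lower, against 12.2% of all genes, 5.69% higher and 6.49% lower. These 9 include ABCA1, which passed the filter on low counts only through the p21 libraries. The p21 medians were 0.33 for the members and -0.00 for all genes. The count of 6 that fell in p21 is the least stable, at 2 with no filter on low counts, 3 with DESeq2, 3 without mVenus replicate 3 and 3 without p21 replicate 2.

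With Torin2, 9 members rose and 14 fell relative to p16 alone, 71.9% against 59.3% of all genes, 30.3% higher and 29% lower. All 7 members called at 2-fold or more fell, where 11.1% of all genes passed that rule, 4.7% higher and 6.44% lower. Median log2 fold changes were -0.07 for the members and 0.02 for all genes. In p21 against p16, 14 were higher and 7 lower, 65.6% against 54.3% of all genes, 27.2% higher and 27.2% lower. At least 2-fold, 5 were higher and 4 lower, against 11.2% of all genes, 6.12% higher and 5.12% lower. The 5 higher again include ABCA1. The members' median was 0.09 and that of all genes -0.01.

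**Figure D2:**
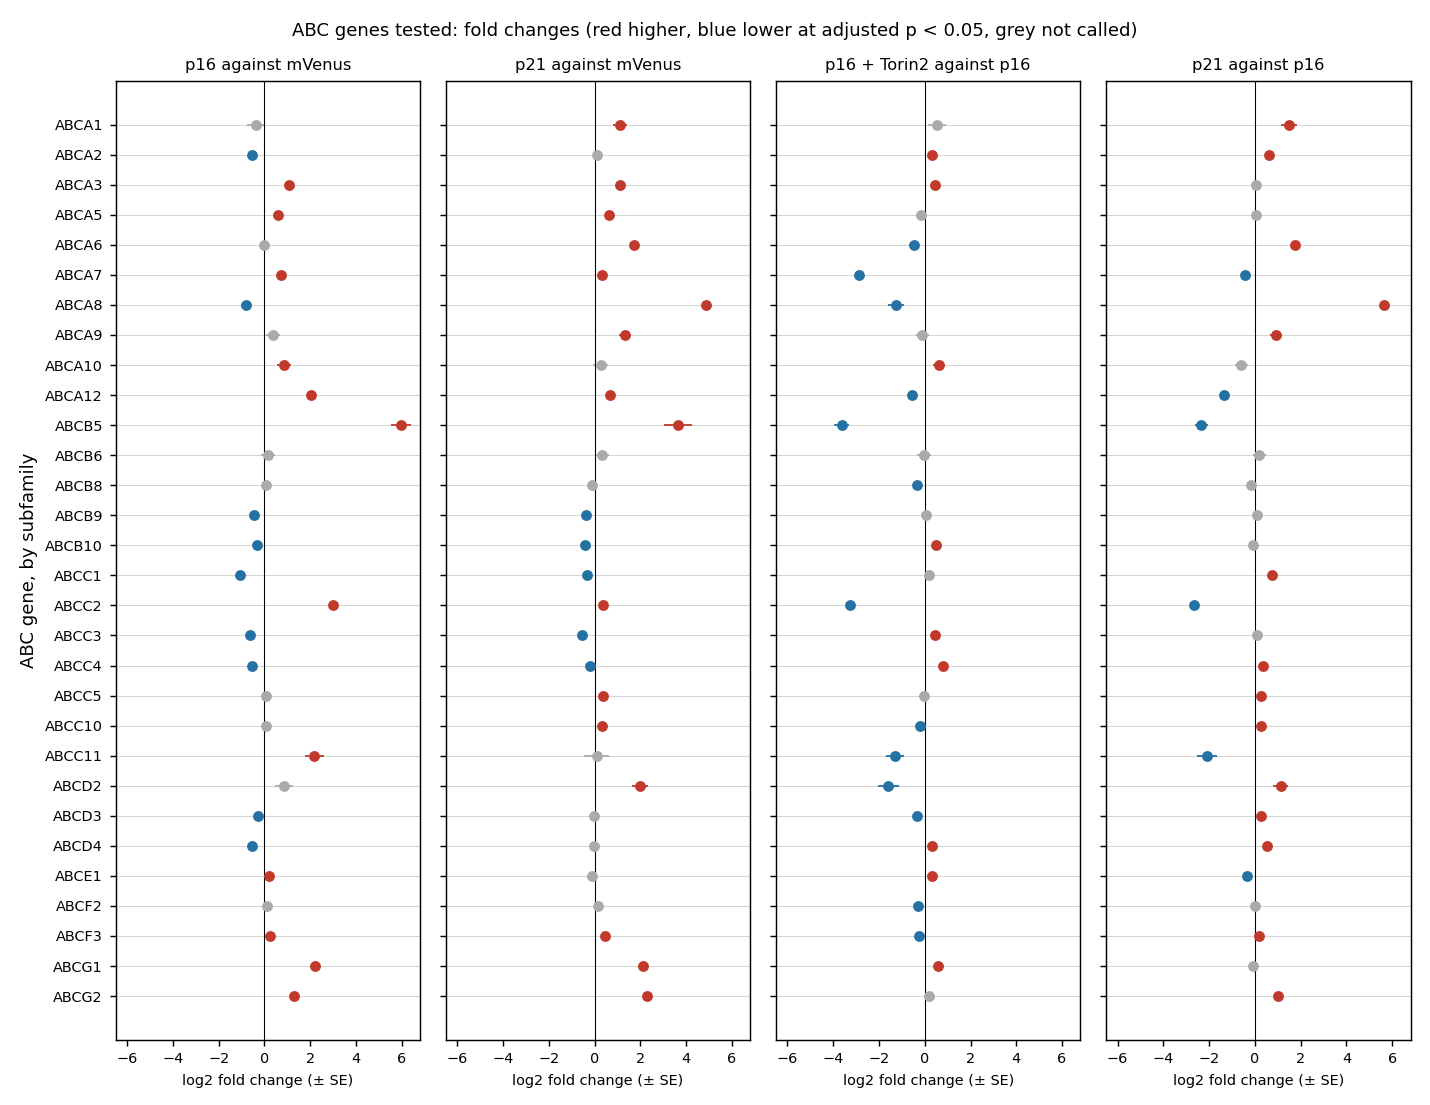
Log2 fold change (horizontal axis) of 30 tested ABC members in the 4 comparisons, 1 panel each, with standard error bars, in red where called higher, blue where called lower (edgeR adjusted p under 0.05) and grey where not called. Most members lie within 1 log2 unit of 0, and the points farthest above it are ABCB5 in p16 against mVenus and ABCA8 in both p21 panels.

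By subfamily, 5 of 10 tested ABCA genes rose and 2 fell in p16, and 8 rose and 0 fell in p21. These are 70% and 80% of the ABCA genes called, where 63.7% of all genes were called in p16 and 56.4% in p21. Of 6 tested ABCB genes, 1 rose and 2 fell in p16, and 1 rose and 3 fell in p21, or 50% and 66.7% called. The 7 tested ABCC genes gave 2 higher and 3 lower in p16, and 3 and 3 in p21, or 71.4% and 85.7%. Both tested ABCG genes rose in p16 and in p21. With Torin2, 3 of the 4 ABCD genes and both tested ABCF genes fell, where 29% of all genes did. With so few genes a subfamily, these shares are descriptions only. Below, 14 members that passed an adjusted p under 0.05, a 2-fold change and at least 1 CPM in the higher group of some comparison are described with their library values, and others by their fold changes or values per group.

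ABCA12 (chromosome 2, 214931542 to 215138428), which loads glucosylceramide into the lamellar granules of skin, was 4.11-fold higher in p16 than in mVenus. Its CPM in replicates 1 to 3 was 61.6, 57.5 and 62.0 for mVenus, 237, 266 and 244 for p16, 163, 169.6 and 171 for p16 with Torin2, and 100.0, 98.1 and 95.2 for p21. The groups did not overlap, and p16 was highest in all 3 libraries. Its log2 fold change was 2.04 ± 0.05, adjusted p = 2.09e-18 in p16. In p21 it was 0.69 ± 0.05, adjusted p = 2.42e-10. The level fell with Torin2 (-0.57 ± 0.04, adjusted p = 6.63e-10) but stayed above mVenus in each library. p21 cells were lower than p16 cells by the direct test (-1.35 ± 0.05, adjusted p = 1.36e-15).

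Other epidermal barrier lipid genes were read from a list of 16, of which 9 were tested. In p16, 6 of these 9 rose and 3 fell, with a median of 0.26 against -0.00 for all genes. For this list and those that follow, the share of all genes called is 63.7% in p16, 56.4% in p21, 59.3% with Torin2 and 54.3% in p21 against p16. NIPAL4, a gene of the epidermal barrier, rose by 3.08 ± 0.39, while the lipoxygenase gene ALOXE3 changed by -1.77 ± 0.14. NIPAL4 had 3, 3 and 1 counts in the mVenus libraries, 19, 20 and 17 in p16 and 4, 3 and 3 in p21, so its fold changes rest on few reads. In p21, 2 rose and 3 fell (median 0.07). Against p16 alone, 3 rose and 5 fell with Torin2 (median -0.21). NIPAL4 (1.04 ± 0.23) and ALOXE3 (0.85 ± 0.16) were among the rises, and ST14, a membrane protease, among the falls (-1.11 ± 0.04). p21 differed from p16 in the same numbers, 3 higher and 5 lower (median -0.16), with NIPAL4 at -2.43 ± 0.36.

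ABCA7 (chromosome 19, 1040101 to 1065572), a phospholipid transporter, rose in p16 and p21 and was 7.28-fold lower with Torin2 than in p16 alone. Levels in replicates 1 to 3 were 50.1, 52.5 and 47.4 CPM for mVenus, 89.4, 87.7 and 70.8 for p16, 11.01, 10.8 and 12.3 for p16 with Torin2, and 63.2, 64.5 and 57.5 for p21. All 3 libraries with Torin2 lay below every other library. The log2 fold change in p16 was 0.73 ± 0.07, adjusted p = 2.21e-08. In p21 it was 0.31 ± 0.07, adjusted p = 0.0015. Torin2 gave -2.86 ± 0.09, adjusted p = 5.59e-16. The direct comparison of p21 with p16 gave -0.42 ± 0.07, adjusted p = 4.04e-05.

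ABCA3 (chromosome 16, 2275881 to 2340746), the lamellar body lipid transporter of lung surfactant cells, rose in p16 and in p21 cells. In replicates 1 to 3 it measured 18.6, 18.04 and 18.6 CPM for mVenus, 40.7, 37.3 and 37.9 for p16, 49.1, 52.6 and 55.6 for p16 with Torin2, and 41.2, 37.9 and 39.6 for p21. mVenus was lowest in every library, p16 and p21 overlapped, and the Torin2 libraries were highest. Log2 fold changes were 1.07 ± 0.06, adjusted p = 8.05e-12 in p16 and 1.10 ± 0.06, adjusted p = 6.72e-12 in p21. Torin2 raised it further (0.44 ± 0.06, adjusted p = 1.03e-06). No difference between p21 and p16 was called (0.03 ± 0.06, adjusted p = 0.681, 95% interval -0.10 to 0.17).

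ABCA1 (chromosome 9, 104781002 to 104928237), which loads cholesterol onto apolipoprotein A-I, was low in every group. The 3 libraries of each group gave 0.367, 0.511 and 0.817 CPM for mVenus, 0.561, 0.329 and 0.406 for p16, 0.717, 0.582 and 0.590 for p16 with Torin2, and 1.10, 1.05 and 1.53 for p21. Only the p21 libraries reached 1 CPM, and they did not overlap any other group. ABCA1 passed the filter on low counts only through these p21 libraries, so its p21 changes are not independent of that filter. It rose in p21 (1.11 ± 0.32, adjusted p = 0.00606) and was higher in p21 than in p16 (1.48 ± 0.35, adjusted p = 0.00112). Neither p16 (-0.38 ± 0.39, adjusted p = 0.428) nor Torin2 (0.53 ± 0.39, adjusted p = 0.265) changed it past the threshold. ABCA2, a lysosomal lipid transporter, was more abundant at 114 ± 4.79 CPM in mVenus. It fell in p16 by 0.53 on the log2 scale, rose with Torin2 by 0.30 and was not called in p21 (0.09 ± 0.05, adjusted p = 0.171).

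The 5 genes ABCA8, ABCA9, ABCA6, ABCA10 and ABCA5 lie in that order on the minus strand of chromosome 17, separated by 19.095, 17.637 and 5.325 kb, and ABCA10 and ABCA5 overlap by 536 bp. ABCA8 (chromosome 17, 68867292 to 68955392), a lipid transporter that has been linked to cholesterol efflux, stood 28.8-fold above its mVenus level in p21 cells. Its CPM in replicates 1 to 3 was 2.57, 2.56 and 1.58 for mVenus, 1.37, 1.38 and 1.02 for p16, 0.782, 0.517 and 0.262 for p16 with Torin2, and 63.7, 64.9 and 63.0 for p21. Every p21 library lay far above all libraries of the other groups. In p21 the log2 fold change was 4.85 ± 0.11, adjusted p = 1.80e-18. In p16 the gene fell (-0.81 ± 0.23, adjusted p = 0.00509), and with Torin2 it fell again (-1.26 ± 0.34, adjusted p = 0.00295). p21 exceeded p16 by 5.65 ± 0.12, adjusted p = 1.86e-18, a 50.3-fold difference.

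ABCA6 (chromosome 17, 69078702 to 69141888) rose in p21 as well, by a smaller factor. Levels in replicates 1 to 3 were 2.62, 2.19 and 2.94 CPM for mVenus, 2.56, 2.77 and 2.37 for p16, 1.498, 2.33 and 1.64 for p16 with Torin2, and 9.03, 8.98 and 7.71 for p21. The 3 p21 libraries lay above all others, and the remaining groups were close together. Its log2 fold change was 1.71 ± 0.16, adjusted p = 1.05e-08 in p21 and -0.02 ± 0.19, adjusted p = 0.919, not called, in p16. p21 exceeded p16 by 1.74 ± 0.16, adjusted p = 1.29e-08. The fall with Torin2 (-0.49 ± 0.20, adjusted p = 0.0422) was lost under 9 of 18 alternatives, with adjusted p from 0.00987 to 0.165.

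ABCA9 (chromosome 17, 68974488 to 69061064) was low everywhere. In replicates 1 to 3 it measured 0.838, 0.730 and 0.708 CPM for mVenus, 0.811, 1.25 and 0.948 for p16, 0.717, 1.03 and 1.05 for p16 with Torin2, and 1.91, 1.42 and 2.42 for p21. p21 held the highest libraries, and the other groups overlapped. It rose in p21 (1.32 ± 0.28, adjusted p = 0.000376) and was called in neither p16 (0.39 ± 0.31, adjusted p = 0.278) nor Torin2 (-0.10 ± 0.30, adjusted p = 0.794). The excess of p21 over p16 (0.93 ± 0.27, adjusted p = 0.00612) was lost without p21 replicate 3, and over 18 alternatives adjusted p ran from 0.00262 to 0.0523.

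ABCA10 sat at 0.835 ± 0.324 CPM in mVenus and was not called in p21 (0.27 ± 0.33, adjusted p = 0.516). Its rise in p16 (0.85 ± 0.31, adjusted p = 0.0199) was lost without mVenus replicate 1, mVenus replicate 2 or p16 replicate 3. With Torin2 its rise (0.63 ± 0.26, adjusted p = 0.0453) was lost under 10 of 18 alternatives. ABCA5, a lysosomal member at 14.8 ± 1.40 CPM in mVenus, rose in p16 by 0.61 ± 0.09 and in p21 by 0.65 ± 0.09. Across the 5 neighbours, p21 fold changes were therefore 4.85, 1.32, 1.71, 0.27 and 0.65 in log2 units in genome order.

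**Figure D3:**
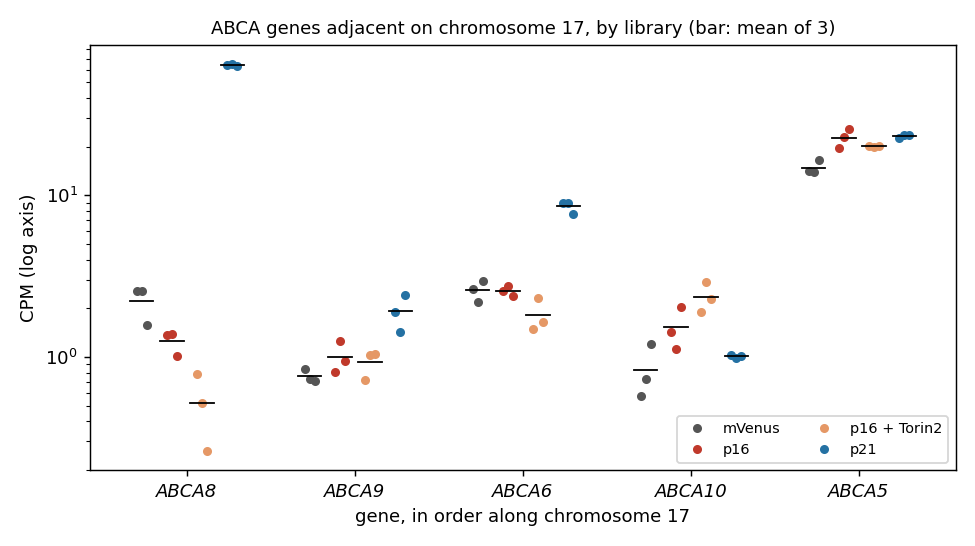
CPM (log axis) of the 5 ABCA genes of chromosome 17 in genome order, each point a library and each bar the mean of the 3 libraries of a group. The p21 libraries of ABCA8 stand at 63.0 to 64.9 CPM, above all other groups, while those of ABCA10 lie within the range of the other libraries.

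A summed list of 6 fibroblast markers was also highest in p21. It stood at 20.1 to 20.5 CPM in mVenus, 6.98 to 7.42 in p16, 5.60 to 5.90 with Torin2 and 111 to 117 in p21. Most of the p21 sum was DCN, a matrix proteoglycan, whose log2 fold change in p21 was 3.34 ± 0.06. COL1A1, a collagen on the list, went the other way in p21 (-1.23 ± 0.16). COL1A2 and COL3A1, which define fibroblasts, were at 0 in p21. The part of this list in the ABCA8, ABCA6 and ABCA9 values was not tested.

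ABCB5 (chromosome 7, 20615207 to 20777038), known as a drug exporter of melanoma and limbal stem cells, was detected mainly in p16. The 3 libraries of each group gave 0, 0 and 0.163 CPM for mVenus, 4.49, 4.68 and 3.25 for p16, 0.261, 0.259 and 0.459 for p16 with Torin2, and 0.734, 0.805 and 0.892 for p21. Summed over 3 libraries these were 191 counts for p16, 37 for p21, 15 for p16 given Torin2 and 3 for mVenus. The p16 libraries lay above all others, p21 came next, and 2 of the 3 mVenus libraries had no ABCB5 read. The ratio of p16 to mVenus was 70.8 (95% counting interval 23.9 to 346) and that of p21 to mVenus 13.9 (4.39 to 70.3). Fitted log2 fold changes were 5.96 ± 0.45, adjusted p = 3.10e-10 and 3.62 ± 0.61, adjusted p = 3.68e-05, and they rest on few mVenus reads. Without mVenus replicate 3 they were 9.01 and 6.67, and without mVenus replicate 1 they were 5.36 and 3.02. Torin2 lowered the gene (-3.64 ± 0.34, adjusted p = 1.11e-08), and p21 was below p16 (-2.34 ± 0.29, adjusted p = 7.02e-07). TYR, which defines melanocytes, was at 0 in every group, and the sum of 4 melanocyte markers stayed between 1.22 and 2.48 CPM over the libraries. The sum of 5 endothelial markers, all with counts in each group, was 4.75 to 5.77 CPM in mVenus, 23.2 to 27.9 in p16, 7.63 to 10.4 with Torin2 and 2.23 to 3.38 in p21, and its part in the ABCB5 values was not tested. Most of the p16 sum was ROBO4, a guidance receptor, at 18.8 to 23.3 CPM in p16 against 1.75 to 2.78 in mVenus. PECAM1 was also higher in p16, at 1.25 to 1.76 CPM against 0.599 to 0.730 in mVenus. It stood at 0.0651 to 0.259 with Torin2 and 0.255 to 0.367 in p21. KDR was not called in p16 (0.39 ± 0.21), CDH5 had 10 counts in mVenus and 4 in p16, and VWF reached at most 0.395 CPM in any library.

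The mitochondrial transporters moved less. ABCB10, an inner membrane transporter needed for haem synthesis, fell from 67.0 ± 3.76 CPM to 53.7 ± 2.83 in p16 and 50.1 ± 1.47 in p21 and stood at 74.7 ± 6.40 with Torin2. Log2 fold changes were -0.32 ± 0.06, adjusted p = 0.000108 in p16, -0.42 ± 0.06, adjusted p = 6.72e-06 in p21 and 0.48 ± 0.06, adjusted p = 1.04e-06 with Torin2. ABCB8, of the inner membrane, fell with Torin2 (-0.32 ± 0.07, adjusted p = 0.000825) and was called in no other comparison.

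ABCB6 passed in 0 of 4 comparisons, but 54.7% of its exonic bases are shared with an overlapping gene, AC068946.2, so its counts are uncertain. ABCB9, a lysosomal peptide transporter with 24.5% shared bases, fell in p16 (-0.47 ± 0.15, adjusted p = 0.0109). Its fall in p21 (-0.37 ± 0.15, adjusted p = 0.0437) was lost under 7 of 18 alternatives, with adjusted p from 0.0184 to 0.193. Of 15 tested iron-sulfur and haem partners, 5 rose and 4 fell in p16 (60% called, median -0.02), and 7 rose and 4 fell in p21 (73.3%, median 0.13). With Torin2, 5 rose and 8 fell (86.7%, median -0.13). HMOX1, the haem-degrading oxygenase, changed by -1.93 ± 0.19 in p16 and -1.56 ± 0.18 in p21, and SLC25A28, a mitochondrial iron importer, by 0.93 ± 0.08 and 1.22 ± 0.08.

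ABCC2 (chromosome 10, 99782640 to 99852594), the apical exporter of glucuronide and glutathione conjugates also called MRP2, was the ABCC member with the greatest fold change in p16. Its CPM in replicates 1 to 3 was 14.5, 17.2 and 17.97 for mVenus, 135, 138 and 124 for p16, 13.7, 14.3 and 13.4 for p16 with Torin2, and 22.1, 21.5 and 20.0 for p21. The 3 p16 libraries lay far above all others, and mVenus and Torin2 were lowest. Its log2 fold change in p16 was 3.0 ± 0.07, adjusted p = 7.64e-19, an 8.03-fold rise. In p21 it was 0.36 ± 0.08, adjusted p = 0.000731. Torin2 lowered it 9.60-fold (-3.26 ± 0.07, adjusted p = 1.07e-18), and p21 was below p16 (-2.64 ± 0.06, adjusted p = 8.26e-18). ALB, APOA1 and TTR, which define hepatocytes, a cell type rich in ABCC2, were at 0 in p16. The printed window of ABCC2 is the one of the 6 that holds the interferon element.

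**Figure D4:**
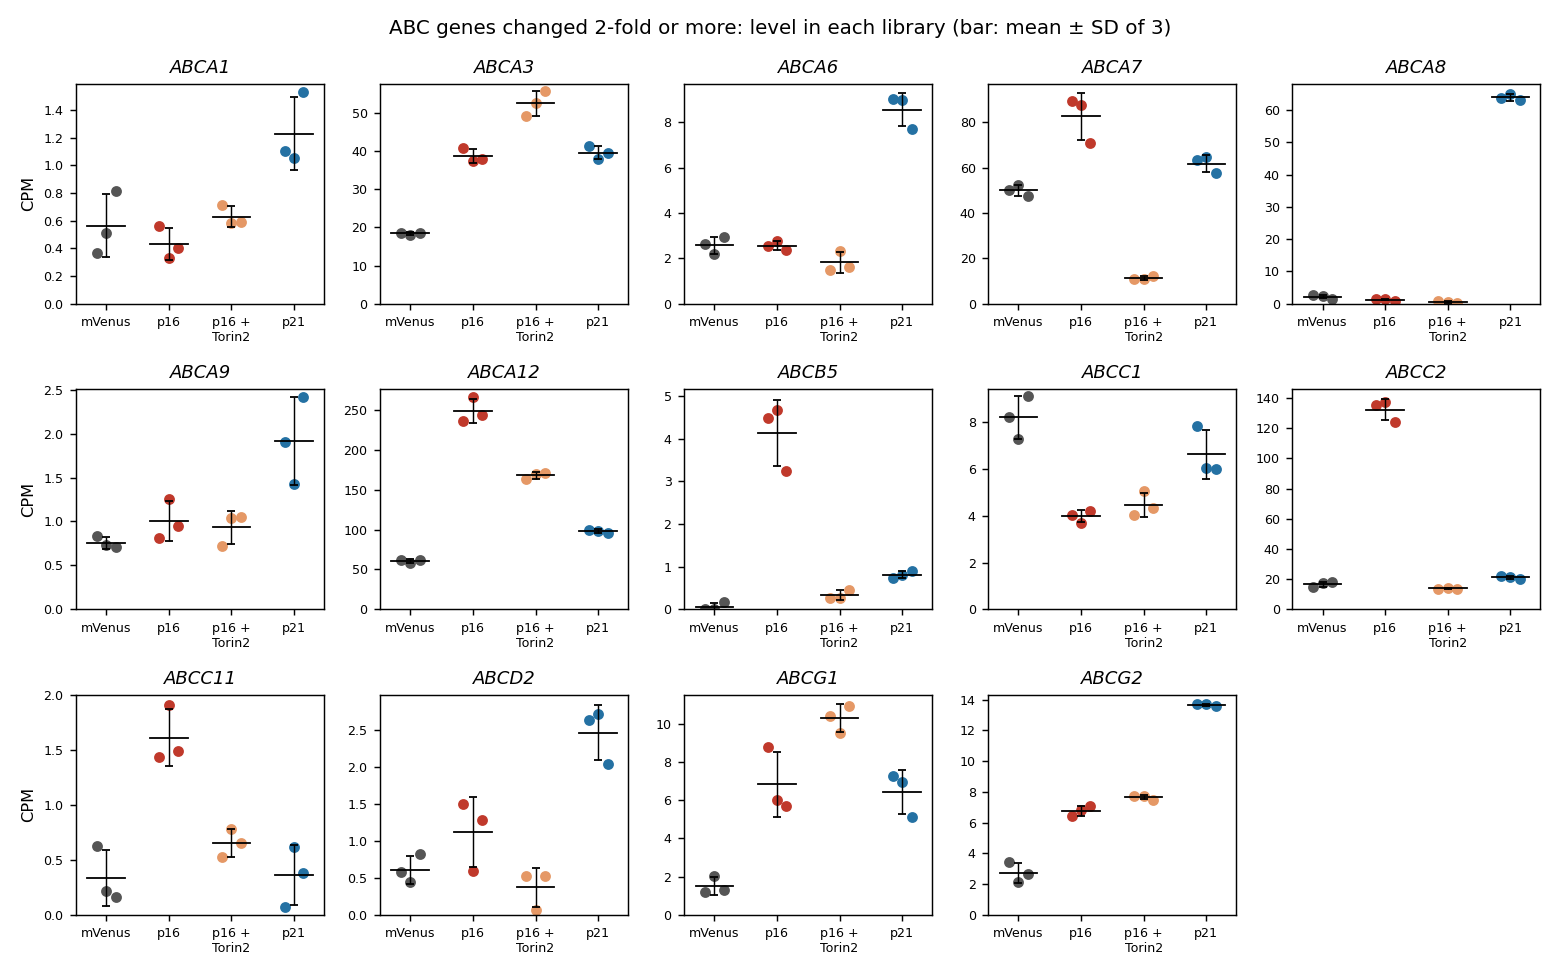
CPM (vertical axis) of 14 members with a called change of at least 2-fold in some comparison, 1 panel per gene, each point a library and each bar the mean ± SD of 3. In the panels of ABCC2, ABCB5 and ABCA12 the p16 libraries are highest, and in that of ABCA8 the p21 libraries are.

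ABCC3 (chromosome 17, 50634777 to 50692252), the most abundant member in mVenus, went the other way from ABCC2. Levels in replicates 1 to 3 were 355, 339 and 340.4 CPM for mVenus, 235, 228 and 208 for p16, 292, 309.7 and 310.3 for p16 with Torin2, and 235, 242 and 229 for p21. mVenus and Torin2 were the highest groups, and p16 and p21 overlapped. Log2 fold changes were -0.62 ± 0.04, adjusted p = 7.77e-11 in p16, -0.55 ± 0.04, adjusted p = 7.73e-10 in p21 and 0.44 ± 0.04, adjusted p = 2.39e-08 with Torin2. p21 and p16 did not differ past the threshold (0.07 ± 0.04, adjusted p = 0.161, 95% interval -0.03 to 0.17).

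ABCC1 (chromosome 16, 15949577 to 16143074), the broad drug and glutathione conjugate exporter MRP1, fell in p16. In replicates 1 to 3 it measured 8.23, 7.30 and 9.15 CPM for mVenus, 4.05, 3.69 and 4.199 for p16, 4.04, 5.04 and 4.33 for p16 with Torin2, and 7.85, 6.07 and 5.99 for p21. mVenus lay above every p16 and Torin2 library and overlapped p21. The p16 change was -1.05 ± 0.14, adjusted p = 1.35e-06. Its p21 change (-0.33 ± 0.13, adjusted p = 0.0368) was lost under 6 of 18 alternatives, with adjusted p from 0.00926 to 0.182. Torin2 was not called (0.17 ± 0.15, adjusted p = 0.368), and p21 was above p16 (0.73 ± 0.15, adjusted p = 0.000265).

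ABCC11 (chromosome 16, 48166910 to 48247568), an apocrine gland exporter, was low outside p16. The 3 libraries of each group gave 0.629, 0.219 and 0.163 CPM for mVenus, 1.43, 1.91 and 1.49 for p16, 0.521, 0.776 and 0.656 for p16 with Torin2, and 0.0734, 0.619 and 0.382 for p21. The p16 libraries were above all others. It rose in p16 (2.18 ± 0.42, adjusted p = 0.000141), which became 3.05 without mVenus replicate 1. With Torin2 it fell (-1.30 ± 0.38, adjusted p = 0.00656), and p21 was not called (0.09 ± 0.56, adjusted p = 0.911, which moved to 0.96 without mVenus replicate 1 and to -0.54 without p21 replicate 2). p21 was below p16 (-2.09 ± 0.43, adjusted p = 0.000333), and by -2.72 without p21 replicate 2.

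Among the remaining ABCC members, ABCC4, an exporter of cyclic nucleotides and prostanoids, fell in p16 (-0.57 ± 0.07, adjusted p = 2.00e-07) and rose with Torin2 (0.82 ± 0.06, adjusted p = 9.54e-10). Its fall in p21 (-0.20 ± 0.06, adjusted p = 0.0114) was lost with no filter on low counts, with DESeq2 and without p21 replicate 2 (adjusted p over 18 alternatives 0.00564 to 0.116). ABCC5, also an exporter of cyclic nucleotides, rose in p21 (0.37 ± 0.06, adjusted p = 4.76e-05). ABCC10 rose in p21 too (0.32 ± 0.06, adjusted p = 5.89e-05) and fell with Torin2 (-0.22 ± 0.06, adjusted p = 0.00221). ABCC8 and ABCC9, the regulatory subunits of ATP-sensitive potassium channels, had 0 and 22 counts over the 12 libraries. Of the channel's pore subunits, KCNJ8 had 0 counts, and KCNJ11 rose in p16 (1.01 ± 0.31) and fell with Torin2 (-1.34 ± 0.34).

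Of 16 tested conjugation and xenobiotic response genes, which make or sense ABCC substrates, 8 rose and 5 fell in p16 (81.2% called, median 0.12). In p21, 9 rose and 3 fell (75%, median 0.18), and with Torin2 2 rose and 9 fell (68.8%, median -0.17 against 0.02 for all genes). GCLC, the catalytic subunit of glutathione synthesis, rose in p21 (1.65 ± 0.05), and GCLM, its modifier subunit, changed by -0.64 ± 0.06. GSTP1, a glutathione transferase, rose in p16 (1.02 ± 0.03).

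ABCD2 (chromosome 12, 39550033 to 39619751), a peroxisomal importer of very long chain fatty acids, was low. Its CPM in replicates 1 to 3 was 0.576, 0.438 and 0.817 for mVenus, 1.497, 0.593 and 1.29 for p16, 0.521, 0.0646 and 0.525 for p16 with Torin2, and 2.64, 2.72 and 2.04 for p21. p21 was highest, and p16 and mVenus overlapped. It rose in p21 (1.97 ± 0.36, adjusted p = 8.90e-05) and fell with Torin2 (-1.59 ± 0.46, adjusted p = 0.00545). In p16 it was not called (0.85 ± 0.40, adjusted p = 0.0736), a result that 3 of 18 alternatives turned into a call (adjusted p 0.0181 to 0.285). The excess of p21 over p16 (1.12 ± 0.33, adjusted p = 0.00697) was lost without p16 replicate 2 (adjusted p over 18 alternatives 0.000541 to 0.0503).

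ABCD3, which brings branched and dicarboxylic acyl chains into peroxisomes, fell in p16 (-0.30 ± 0.06, adjusted p = 0.000122) and with Torin2 (-0.33 ± 0.06, adjusted p = 8.20e-05). In p21 it was not called (-0.03 ± 0.06, adjusted p = 0.71). ABCD4, the lysosomal cobalamin carrier, fell in p16 (-0.55 ± 0.07, adjusted p = 3.05e-07) and rose with Torin2 (0.30 ± 0.07, adjusted p = 0.000817). All 13 listed peroxisomal fatty acid oxidation partners were tested. With Torin2 0 rose and 13 fell, at a median of -0.36 against 0.02 for all genes. CRAT, a carnitine acetyltransferase, changed most, by -2.38 ± 0.07, and ACAA1, the peroxisomal thiolase, by -1.11 ± 0.06. In p16, 7 rose and 1 fell (61.5% called, median 0.19), with CRAT at 1.93 ± 0.07. In p21, 6 rose and 3 fell (69.2%, median -0.04).

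ABCE1, which splits ribosomes after termination, was lowest in p21 at 111 ± 1.47 CPM, ahead of 120.1 ± 7.83 in mVenus and 139.5 ± 14.2 in p16, and highest after Torin2 at 171 ± 9.50. It rose in p16 (0.21 ± 0.06, adjusted p = 0.00459) and with Torin2 (0.30 ± 0.06, adjusted p = 0.000252), and p21 was below p16 (-0.33 ± 0.06, adjusted p = 0.000119). An overlapping gene, ANAPC10, shares 11.9% of its exonic bases. ABCF3, which acts in translation control, rose in p16 (0.26 ± 0.06, adjusted p = 0.000836) and p21 (0.45 ± 0.06, adjusted p = 1.67e-06) and fell with Torin2 (-0.25 ± 0.06, adjusted p = 0.0016). ABCF2 fell with Torin2 (-0.28 ± 0.07, adjusted p = 0.000984), and it shares 45.8% of its exonic bases with AC021097.2. Of 13 tested ribosome recycling and translational control partners, 4 rose and 3 fell in p16 (53.8% called, median -0.03), 2 and 5 in p21 (53.8%, median -0.03) and 3 and 5 with Torin2 (61.5%, median -0.06).

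ABCG2 (chromosome 4, 88090264 to 88231322), the exporter of urate and many drugs known as BCRP, was lowest in mVenus and highest in p21. Levels in replicates 1 to 3 were 3.41, 2.12 and 2.67 CPM for mVenus, 6.42, 6.78 and 7.04 for p16, 7.75, 7.76 and 7.47 for p16 with Torin2, and 13.7, 13.7 and 13.6 for p21. The 3 p21 libraries lay above all others and the 3 mVenus libraries below all others. Log2 fold changes were 1.27 ± 0.14, adjusted p = 7.41e-08 in p16 and 2.29 ± 0.12, adjusted p = 2.05e-12 in p21. Torin2 gave no call (0.18 ± 0.12, adjusted p = 0.186, 95% interval -0.09 to 0.45). p21 was above p16 (1.02 ± 0.11, adjusted p = 1.01e-07).

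ABCG1 (chromosome 21, 42199689 to 42297244), which exports sterol to HDL, rose in p16 and p21 cells and further with Torin2. In replicates 1 to 3 it measured 1.21, 2.04 and 1.31 CPM for mVenus, 8.79, 5.99 and 5.69 for p16, 10.4, 9.50 and 10.9 for p16 with Torin2, and 7.26, 6.93 and 5.10 for p21. mVenus was below every other library, and p16 and p21 overlapped. The log2 fold change was 2.21 ± 0.22, adjusted p = 2.06e-08 in p16 and 2.12 ± 0.22, adjusted p = 6.87e-08 in p21. Torin2 added 0.59 ± 0.16, adjusted p = 0.00355. p21 and p16 did not differ past the threshold (-0.10 ± 0.17, adjusted p = 0.664, 95% interval -0.49 to 0.30). The sum of 7 leukocyte markers, a cell class in which ABCG1 is abundant, was 54.5 to 58.3 CPM in mVenus, 114 to 127 in p16, 51.5 to 56.0 with Torin2 and 108 to 111 in p21. Most of the sum was CSF1R, a cytokine receptor, at 78.2 to 88.2 CPM in p16 and 39.2 to 40.6 in mVenus. CD14 was also higher in p16, at 34.6 to 38.5 CPM against 12.8 to 17.6 in mVenus, and ITGAX was lower, at 0 to 0.686 against 1.31 to 1.53. CD3E and TYROBP were at 0 in each group, and PTPRC had 1 count in mVenus replicate 1 and 0 in all other libraries. The part of the list in the ABCG1 values was not tested.

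Of 13 tested sterol receptors and efflux partners, 7 rose and 2 fell in p16 (69.2% called, median 0.32), and 7 rose and 4 fell in p21 (84.6%, median 0.16). With Torin2 3 rose and 8 fell (84.6%, median -0.48 against 0.02 for all genes). NR1H3, the sterol receptor LXR alpha that can drive ABCA1 and ABCG1, changed by -0.42 ± 0.15 in p16 and 2.06 ± 0.13 with Torin2. It stood at 3.06 to 3.12 CPM in p16 and 11.8 to 14.2 with Torin2, and NR1H2, also on the list, at 75.7 to 87.9 and 70.7 to 82.5. The part of either gene in the ABCA1 and ABCG1 values was not tested. APOE, a sterol acceptor, changed by -1.81 ± 0.44 with Torin2. In p21 APOE changed by -2.95 ± 0.37 and SCARB1, the HDL receptor, by 0.87 ± 0.04.

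Of the 14 members not tested, ABCB1, ABCC6, ABCC8, ABCC12 and ABCC13 had 0 counts in all libraries. ABCB1 is the drug exporter P-glycoprotein, and 0 counts over the 3 libraries of a group allow a level of up to 0.0587 to 0.0660 CPM (3 counts, counting error only). ABCC6 has near-identical pseudogene copies, so its 0 counts set no such limit. ABCA4 and ABCA13 had 6 counts each over the 12 libraries, ABCB4 5, ABCB11 9, ABCG4 10, ABCG5 3, ABCG8 8 and ABCC9 22, of which 11 were in 1 library. ABCF1 had 5 counts, although it is a widely expressed translation factor. Within 2 Mb of ABCF1 on chromosome 6, 66.0% of 141 protein-coding genes had 0 counts, against 18.1% of 19766 others, so its row sets no limit on its expression. Of the ABC genes outside the name rule, TAP1 had 0 counts, TAP2 4 and CFTR 2. The reason for the low TAP1 and TAP2 counts was not tested, and they too set no limit on expression.

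In the authors' deposited table of fold changes, the 32 tested members had the same sign as here in each of the 3 comparisons it covers. The authors' deposited table called 13 higher and 8 lower in p16, 17 and 3 in p21, and 8 and 13 with Torin2. Members' fold changes in the authors' deposited table differed from those above by at most 0.20, 0.18 and 0.05 log2 units.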

How the data were processed

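Polyadenylated RNA of 4 groups of 3 libraries was sequenced with the KAPA Stranded kit, per the labels' protocols. The submitters' processing notes list FastQC 0.11.3, HISAT2, featureCounts, DESeq2 and the genome GRCh38.p7, and featureCounts was version 1.6.3 per the file headers; the strand setting of the counting was not given in the sources used here. The deposited unit is a raw count per gene name. Log2 fold changes and adjusted p-values in the authors' deposited table are shown as the authors gave them.

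Genes were tested with edgeR 4.0.16 (R 4.3.3): filterByExpr, TMM scaling (factors 0.967 to 1.05) and the quasi-likelihood test on all 12 libraries in 1 fit, with 8 residual degrees of freedom, a common biological variation of 3.94% and Benjamini-Hochberg adjustment over 14504 genes. CPM is counts per 1000000 of the effective (TMM-scaled) library size. Fold changes carry the standard error, and 95% intervals use the residual degrees of freedom. Counting intervals are exact and, like the limit for 0 counts, cover counting error only. The members and the partner gene lists were chosen with earlier results of these data known. Library values are given for ABCC3 and for members that had, in some comparison, an adjusted p under 0.05, a change of at least 2-fold and at least 1 CPM in the higher group; the other tested members are given by group. Partners named are up to 2 of the largest called rises and falls in each list and comparison. Of 101 listed genes, 1 name was not matched in the files. Some single-gene results are not reported here, although those genes stay in the fits and counts.

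Alternatives were DESeq2 size factors, upper quartile scaling, a fit limited to the 2 groups at hand, the Wald test of DESeq2 1.42.0, keeping all genes with a count, a replicate block, dropping each library in turn, and, chosen after seeing the data, leaving out members that share over 10% of exonic bases. On simulated data for p16 against mVenus, 81.8% of 66 genes changed 2-fold were called in a fit of 14190 genes.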

Additional observations from a re-analysis of the deposited data

How the results depend on the processing

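Of 128 results for single members, 89 were called, and 79 of these kept their call under all 18 alternatives; 0 reversed while called. The other 39 were not called, and 30 stayed so. Other scaling moved the median of all genes by at most 0.03 log2 units. The number of members lower in p21 than in mVenus, 6, was 2 with no filter on low counts and 3 with the DESeq2 Wald test, and 3 to 7 when each library was left out. Leaving out each library gave 12 to 14 higher and 9 to 10 lower members in p16, 17 higher in p21, 8 to 9 higher and 13 to 14 lower with Torin2, and 12 to 15 higher and 7 to 8 lower in p21 against p16. The cause of the lower p21 counts was not tested.

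Libraries with the same replicate number did not deviate together: over 18 pairs the correlation of their deviations from the group means was -0.08 to 0.08, and 0 pairs passed 0.1. A fit with a replicate block called 13 members higher and 9 lower in p16, 17 and 5 in p21, 9 and 13 with Torin2, and 14 and 7 in p21 against p16, so that 1 call was lost in p21 (ABCB9) and 1 with Torin2 (ABCA6) and no other count changed. Depth limits the members below 1 CPM, ABCA1, ABCA9, ABCA10, ABCB5, ABCB6, ABCC11 and ABCD2 in mVenus among them, whose fold changes carry the largest errors.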

Other observations

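Of 15 other gene names that start with ABC but lie outside the naming of the members, all pseudogenes and antisense genes, 2 had more than 13 counts over the 12 libraries. ABCA17P, a pseudogene, had 88 counts and ABCA11P, also a pseudogene, had 83, each spread over libraries with at most 16 and 14 counts in 1 library. ABCA9-AS1, antisense to ABCA9, had 1 count.

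Neighbouring members on other chromosomes were read as follows. ABCC11 reached 1.61 ± 0.260 CPM in p16 (SD, n = 3), and ABCC12, 10.891 kb from it on the same strand, had 0 counts. ABCG5 and ABCG8, which overlap in opposite orientations and encode a sterol exporter of liver and gut, had 3 and 8 counts over the 12 libraries. ABCB4 and ABCB1, 23.197 kb apart on the same strand, had 5 and 0 counts.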
